A study of Saccharomyces cerevisiae with 6 samples.

Results

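The comparison is between 2 mutants of budding yeast, Saccharomyces cerevisiae, in which a subunit of the Paf1 complex is missing: cells lacking PAF1 (paf1△) and cells lacking CDC73 (cdc73△). It covers 4 of the 6 libraries of the series, 2 per genotype, at all 6858 positions of the transcribed ribosomal DNA (rDNA). The 4 libraries were chosen by genotype, as the pair of genotypes whose read depths overlap. The remaining 2 libraries are wild type and were not used. RNA polymerase I (Pol I) was immunoprecipitated from all strains, and the RNA bound to it was sequenced (native elongating transcript sequencing, NET-seq). The last base of such an RNA marks where a polymerase stood. The base of a position is read here as that 3' end, although the read end used is not stated by the labels and was not tested. The labels name no other allele and do not say whether replicates were separate cultures, so p-values measure only the spread between these libraries, which may be technical.

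Pol I makes a single long precursor, the 35S pre-rRNA, which carries the 18S, 5.8S and 25S rRNAs between spacers that are cut out and degraded. The spacers are the 5' and 3' external transcribed spacers (5' ETS and 3' ETS) and the internal transcribed spacers ITS1 and ITS2. The Paf1 complex travels with elongating RNA polymerases. Within it, Paf1 is part of the core that holds the other subunits together, and Cdc73 helps attach the complex to the elongating polymerase, as worked out mainly for RNA polymerase II. Polymerases do not move evenly: they dwell at some bases longer than at others, and NET-seq shows such dwelling as a peak.

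The signal is taken as the number of reads at a position. Its sum over positions 1 to 6739 was set to 1000000 for every library. The signal is therefore relative, and total Pol I occupancy was not measured. The median position had a signal of 101.9 and 100.5 in the paf1△ libraries and of 89.6 and 85.2 in the cdc73△ libraries. If the smallest value of a library is 1 read, the paf1△ libraries held 29671814 and 14203939.5 reads and the cdc73△ libraries 18428847.5 and 14965806.5, so the depths overlap. Across the 6846 positions tested, the 2 paf1△ libraries differed by 2-fold or more at 0.102% of positions and the 2 cdc73△ libraries at 0.0292%. Between the genotypes this share was 6.19% to 8.53%. No library stood apart from its partner.

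Stretches of the precursor that carry the largest differences are shown first, because the bases at the peaks recur in the results. They are the RNA strand, 5' to 3', as the deposited table gives its bases. The rDNA lies on the minus strand of chromosome XII in build R64, and positions count from the start of the 35S transcript. Capitals mark the positions named. The first group peaked in paf1△ cells at its first capital base.
Positions 405 and 406, 5' ETS, chrXII:467154-467175: caaaucagcgAUaucaaacgua
Positions 2659 and 2660, ITS1, chrXII:464900-464921: auuccaaacgGUgagagauuuc
Positions 3136 and 3137, ITS2, chrXII:464423-464444: ugcuugagguAUaaugcaagua
Positions 845 and 846, 18S, chrXII:466714-466735: acuacaugguAUaacuguggua
Position 232, 5' ETS, chrXII:467328-467348: gcguuuaaccUgaacagucuc
Position 1063, 18S, chrXII:466497-466517: acggguaacgGggaauaaggg

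The second group peaked in cdc73△ cells at the capital base.
Position 108, 5' ETS, chrXII:467452-467472: guggagagagUcgcuagguga
Position 307, 5' ETS, chrXII:467253-467273: uagcuaauagCaaucuauuuc
Position 1072, 18S, chrXII:466488-466508: ggggaauaagGguucgauucc
Position 2671, ITS1, chrXII:464889-464909: gagagauuucUgugcuuuugu
Position 3049, ITS2, chrXII:464511-464531: ugguagugagUgauacucuuu
Position 6411, 25S, chrXII:461149-461169: auuucuuugcUccacacaaua

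In 2 stretches of the 5' ETS, peaks of both genotypes lay within 10 nt of each other. In the first stretch below, position 496 was high in paf1△ cells and positions 499 and 504 in cdc73△ cells. In the second, positions 622 and 623 were high in paf1△ cells and positions 631 and 632 in cdc73△ cells.
Positions 496, 499 and 504, 5' ETS, chrXII:467058-467082: uggugacgGagUgcgcUggucaaga
Positions 622, 623, 631 and 632, 5' ETS, chrXII:466930-466956: cuagcaagAGggaauagGUgggaaaaa

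At single bases the genotypes differed in both directions along the whole unit. Limma with Benjamini-Hochberg adjustment, on log2 of the signal plus a pseudocount of 47.4, called 3764 of 6846 positions different (55.0%), of which 2357 were higher in paf1△ cells (34.4%) and 1407 lower (20.6%). At least 2-fold differences on that scale were found at 293 positions higher in paf1△ cells (4.28%) and 173 lower (2.53%). The pseudocount shrinks the difference of weak positions, so the fold is understated there. The scaling sets the split: the median log2 difference of all tested positions was 0.07, and when library medians were equalised, which moved it down by 0.139, 1563 positions were higher and 2226 lower. The genotypes did not overlap at 79.8% of tested positions.

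**Figure D1:**
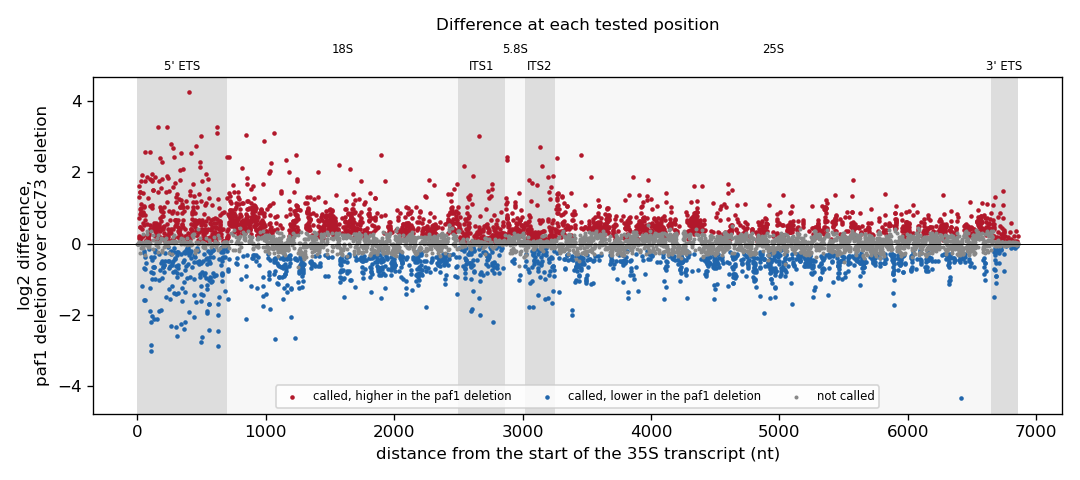
Log2 difference, paf1△ over cdc73△, at each of the 6846 tested positions against distance from the start of the 35S transcript in nt, with red and blue for positions called higher and lower in paf1△ cells at an adjusted p under 0.05 and grey for the rest. Grey bands are spacers. Large differences of both signs crowd in the 5' ETS, and the lowest point is position 6411 in 25S at -4.34.

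The 5' ETS, the leader of the precursor that is needed for 18S maturation, held 149 of the 466 positions with at least a 2-fold difference, among 697 tested, with 91 higher and 58 lower in paf1△ cells (70 and 73 with library medians equalised). Position 405, an A, had a signal of 1170.0 and 975 in the paf1△ libraries, against 12.3 and 9.76 in the cdc73△ libraries. Both paf1 libraries were far above both cdc73 libraries, a log2 difference of 4.26 (SE 0.12). Position 232, a U, had 949 and 868 in paf1△ cells and 39.5 and 62.8 in cdc73△ cells, a log2 difference of 3.29. Position 622 had 719.9 and 708 in paf1△ cells and 33.98 and 29.7 in cdc73△ cells. The next base, 623, had 619 and 564 in paf1△ cells against 24.5 and 29.5 in cdc73△ cells. Both genotypes were high at the base after, 624, with 357 and 542 in paf1△ cells against 440 and 421 in cdc73△ cells. The difference at 624 was not called. Position 496, a G, had 531 and 534 in paf1△ cells and 23.4 and 24.5 in cdc73△ cells.

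In the same spacer other bases peaked in cdc73△ cells. Position 108, a U, had 27.8 and 24.4 in paf1△ cells against 575 and 519 in cdc73△ cells, and the adjacent 109, a C, had 21.8 and 13.7 in paf1△ cells against 421 and 420.2 in cdc73△ cells. Position 631, a G, had 28.9 and 33.0 in paf1△ cells and 531 and 529.9 in cdc73△ cells. Position 307, a C, had 23.6 and 29.3 in paf1△ cells against 398 and 399 in cdc73△ cells. These sites were at or above 398 in each cdc73 library and at or below 33.0 in each paf1 library. Position 632, the base after 631, had 39.0 and 39.4 in paf1△ cells against 418 and 426 in cdc73△ cells. Positions 499 and 504, both U, had 33.4 and 45.8, and 39.0 and 54.8, in paf1△ cells, against 541 and 547, and 571 and 493, in cdc73△ cells. For the 5' ETS positions described so far, apart from 624, the limma adjusted p with Benjamini-Hochberg adjustment was between 1.775e-06 and 3.247e-06. At each of these, again apart from 624, the log2 difference kept its sign and call when any 1 library was left out.

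18S is the rRNA of the small ribosomal subunit. Here and in 5.8S and 25S, RNA from finished ribosomes and nascent RNA were not separated. Position 1063, a G in a run of G, had 1675 and 1634 in paf1△ cells and 151 and 146 in cdc73△ cells, a log2 difference of 3.12. Only 9 nt further on the order was the opposite: position 1072, also a G, had 128 and 134 in paf1△ cells and 1088 and 1104 in cdc73△ cells. Position 845, an A, had 1252 and 1192 in paf1△ cells against 116 and 93.6 in cdc73△ cells, and position 988, an A, had 686 and 669 in paf1△ cells against 63.4 and 39.4 in cdc73△ cells. Position 1232, a U, was less even, with 188 and 70.4 in paf1△ cells and 1356 and 720.1 in cdc73△ cells.

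In ITS1, which separates 18S from 5.8S, position 2659, a G, had 486 and 446 in paf1△ cells and 17.3 and 14.2 in cdc73△ cells, and position 2546, an A, had 173 and 261 in paf1△ cells against 9.12 and 11.1 in cdc73△ cells. Position 2769, a G, was the other way round, with 24.3 and 31.6 in paf1△ cells and 304 and 296 in cdc73△ cells, as was the U at 2671, with 21.8 and 19.7 in paf1△ cells against 235 and 214 in cdc73△ cells. At these ITS1 sites the genotypes were apart by far more than their replicates. In ITS2, between 5.8S and 25S, the A at 3136 had 368 and 366 in paf1△ cells against 17.3 and 15.3 in cdc73△ cells. The G at 3150 had 232 and 187 in paf1△ cells and 9.12 and 9.36 in cdc73△ cells. Both ITS2 sites lay far below the median position in cdc73△ cells. The U at 3049 was low in paf1△ cells, with 36.6 and 35.9, against 247 and 235 in cdc73△ cells, and the C at 3227 had 27.95 and 21.98 in paf1△ cells against 193 and 170.4 in cdc73△ cells. Replicates of a genotype lay close together at each of these spacer sites except 2546.

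5.8S, which pairs with 25S in the large subunit, moved mostly one way. Of its 156 tested positions 67 were higher in paf1△ cells and 5 lower, beside 34.4% and 20.6% over all positions. With the medians set equal the count was 41 and 20. The largest differences were at neighbouring bases: 2877, a G, had 569 and 679 in paf1△ cells and 133 and 38.8 in cdc73△ cells, and 2878, an A, had 554 and 596 in paf1△ cells against 108 and 48.2 in cdc73△ cells. The cdc73 libraries were uneven there. Lower sites were weak: the C at 2976 had 61.3 and 59.4 in paf1△ cells and 168 and 169 in cdc73△ cells, and the C at 2918 had 276 and 228 in paf1△ cells against 379.9 and 362 in cdc73△ cells.

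25S, the large subunit rRNA, contained the single largest fall. The U at 6411 had 523 and 156 in paf1△ cells and 9889 and 4721 in cdc73△ cells. Both genotypes had uneven libraries at this site, but the genotypes did not overlap (log2 difference -4.34, SE 0.47, limma adjusted p with Benjamini-Hochberg adjustment 0.0001399). Its neighbours 6410 and 6412 were not called: 6412 had 124 and 100.2 in paf1△ cells and 139 and 131 in cdc73△ cells. The A at 3452 had 596 and 525 in paf1△ cells and 58.8 and 62.6 in cdc73△ cells, and the A at 3271 had 473 and 423 in paf1△ cells against 53.2 and 38.7 in cdc73△ cells. The G at 3387 was low in paf1△ cells, with 44.3 and 44.1, against 299 and 337 in cdc73△ cells. In the 3' ETS the U at 6673 had 38.4 and 39.6 in paf1△ cells and 212 and 186 in cdc73△ cells. The U at 6662 had 1916 and 1567 in paf1△ cells against 992 and 1183 in cdc73△ cells, a difference whose call was lost without replicate 1 of paf1△ cells (limma adjusted p with Benjamini-Hochberg adjustment 0.05342) and without replicate 1 of cdc73△ cells (0.05036). The other 36 named positions kept their calls when any 1 library was left out.

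Several peaks of paf1△ cells stood 1 base before a position that was lower in paf1△ cells. At position 406, the base after the large paf1 peak at 405, the signal was 62.0 and 50.4 in paf1△ cells and 316.7 and 376.4 in cdc73△ cells. At 2660, after 2659, it was 44.1 and 48.2 in paf1△ cells against 227.4 and 211.5 in cdc73△ cells. At 3137, after 3136, it was 24.6 and 19.7 in paf1△ cells against 82.9 and 85.9 in cdc73△ cells, and at 846, after 845, it was 110.5 and 100.4 in paf1△ cells against 250.0 and 225.3 in cdc73△ cells. Each of these next bases was called lower in paf1△ cells, while the base before was called higher. Among the 19 named positions that were higher in paf1△ cells, the next base was called lower at 6 and the base before at 2. Of all tested positions 20.6% were called lower, and 24.9% of those in the spacers. The reverse order also occurred. Among the 18 named positions that were lower in paf1△ cells, the next base was called higher at 8 and the base before at 6. Of all tested positions 34.4% were called higher, and 44.0% of those in the spacers. Among the 120 spacer positions at least 2-fold higher in paf1△ cells, the next base was called lower at 41 (34.2%) and the base before at 27 (22.5%), beside 24.9% of all tested spacer positions. In the mature rRNA stretches the next base was called lower at 37 of 173 (21.4%), beside 19.3%. The larger share at the next base was limited to the positions with at least a 2-fold difference. Among all positions called higher it was 152 of 659 in the spacers (23.1%, beside 24.9%) and 180 of 1698 in the mature stretches (10.6%, beside 19.3%). Even at the 120 spacer positions the next base was more often called higher, at 58 (48.3%, beside 44.0% of all tested spacer positions). Values of neighbouring bases share a library scale, and none of these shares was tested.

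**Figure D2:**
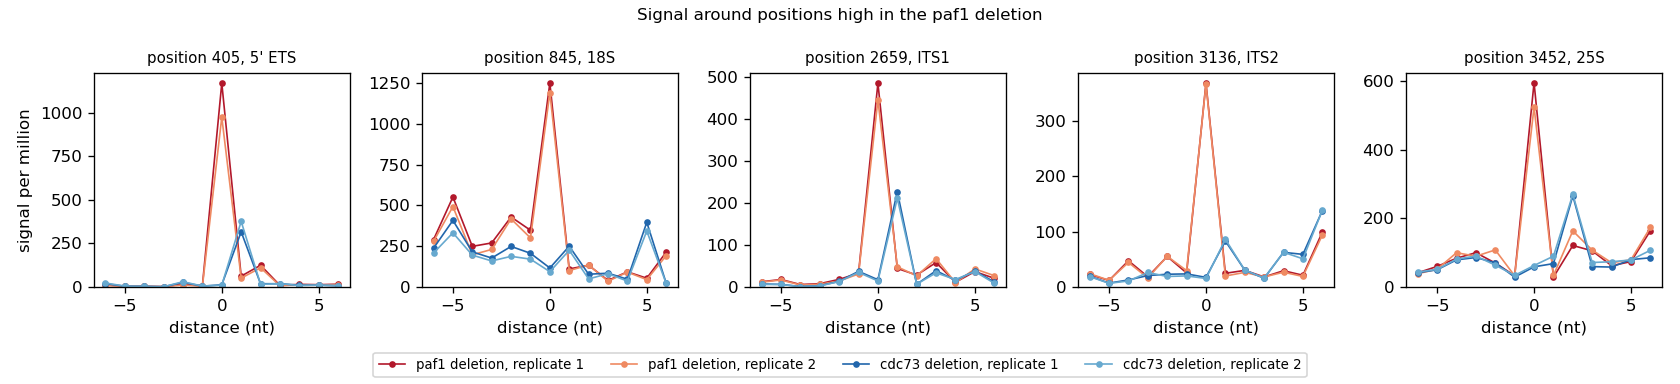
Scaled signal in each of the 4 libraries from 6 nt before to 6 nt after 5 positions that were high in paf1△ cells and followed by a base called lower, 1 for each region that had such a position. The paf1 libraries peak at distance 0 in each panel. In the 5' ETS and ITS1 panels the cdc73 libraries peak at distance 1, and that peak is the smaller one.

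The 2 profiles were also compared as wholes, with the cdc73 profile read 1 or more bases further on. Pearson correlations of log2 signal across positions describe the shapes of these libraries, and positions are not independent. In the 5' ETS (697 positions) the mean r over the 4 library pairs was 0.366 with no offset and 0.448 with cdc73△ cells read 1 base downstream, with ranges of 0.341 to 0.393 and 0.428 to 0.465 that do not overlap. Replicates of a genotype, with the second read 1 base downstream of the first, gave 0.464 in paf1△ cells and 0.4435 in cdc73△ cells. Between the genotypes an offset of 1 base upstream gave 0.333. In the other 6 regions Pearson's r was highest with no offset: 0.491 in ITS1, 0.661 in ITS2, 0.888 in the 3' ETS, 0.757 in 18S, 0.911 in 5.8S and 0.866 in 25S. By rank correlation the 5' ETS gave 0.517 with no offset and 0.523 with 1 base downstream, with overlapping ranges of 0.489 to 0.546 and 0.507 to 0.541. The 3' ETS gave 0.710 with no offset, 0.739 with 1 base upstream and 0.736 with 1 base downstream, and the other 5 regions were highest with no offset by rank too. Moving the cdc73 profile 1 nt upstream, an alternative chosen after seeing the data, left 200 spacer positions with at least a 2-fold difference, beside 196 without the move, and gave 1016 in the mature stretches, beside 270.

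**Figure D3:**
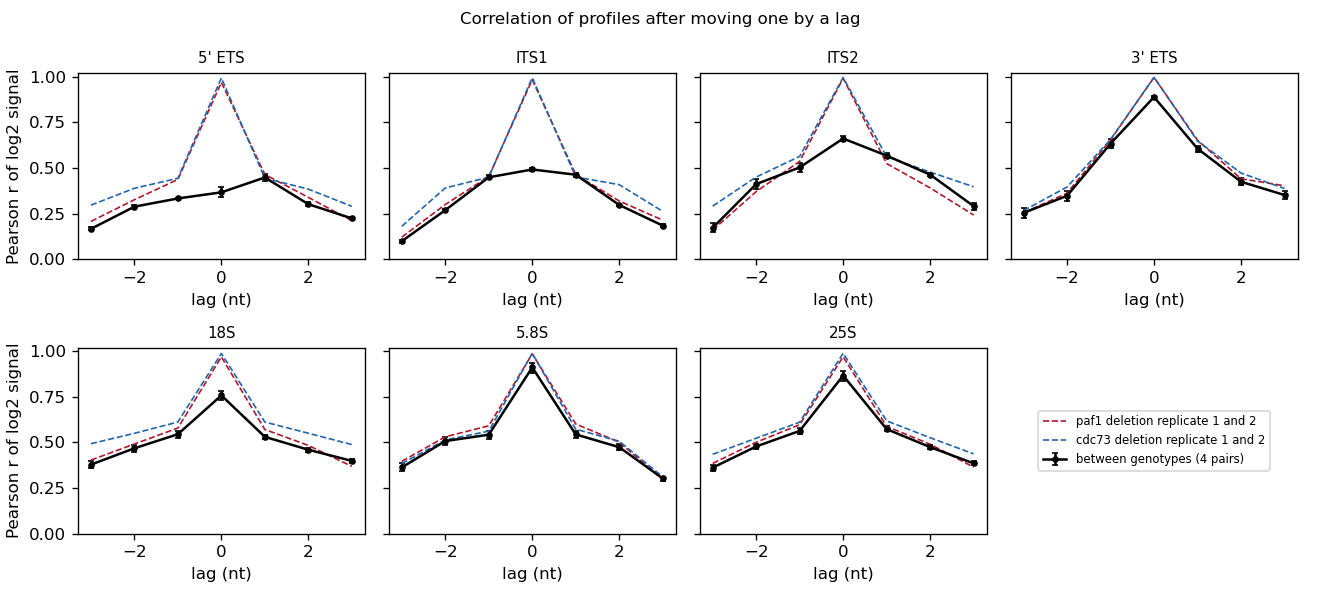
Pearson r of log2 signal across positions, by region, with a profile moved by a lag in nt, where a positive lag reads cdc73△ cells (or the second replicate) downstream of paf1△ cells (or the first). Dashed lines compare replicates of a genotype, and black points are the mean of the 4 library pairs between genotypes with bars from the lowest to the highest. Replicates peak at lag 0 in every region, and the comparison between genotypes peaks at lag 1 in the 5' ETS, at 0.448.

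The genotypes also differed in the nucleotide at the positions with signal, taken as the RNA 3' end. To take out differences between regions, the signal was divided by the mean of the position and the 50 nt on each side, so that 1 is the local average, and averaged by base. In the spacers, A stood at 1.243 and 1.221 in paf1△ cells and 0.563 and 0.554 in cdc73△ cells over 427 positions. U was the reverse, at 0.625 and 0.618 in paf1△ cells and 1.111 and 1.113 in cdc73△ cells, and C had 0.712 and 0.687 in paf1△ cells against 0.924 and 0.937 in cdc73△ cells. G overlapped, with 1.025 and 1.067 in paf1△ cells against 1.051 and 1.054 in cdc73△ cells. For A, C and U an exact permutation test (two-sided) returned p = 0.333, the smallest that 2 libraries against 2 allow, and for G p = 1.0.

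Among the spacers the ratio between the genotypes at A was furthest from 1 in the 3' ETS, with 1.039 and 0.991 in paf1△ cells and 0.279 and 0.263 in cdc73△ cells, over 65 positions. In the 5' ETS, A had 1.382 and 1.366 in paf1△ cells and 0.568 and 0.561 in cdc73△ cells, in ITS1 1.146 and 1.138 in paf1△ cells against 0.637 and 0.623 in cdc73△ cells, and in ITS2 1.188 and 1.146 in paf1△ cells against 0.727 and 0.732 in cdc73△ cells. Over the mature stretches A, C and U had the same order with smaller gaps, although in 5.8S alone U was at 1.299 and 1.337 in paf1△ cells and 1.196 and 1.206 in cdc73△ cells. Over all mature stretches A averaged 1.252 ± 0.00227 in paf1△ cells and 1.040 ± 0.00806 in cdc73△ cells, and U averaged 0.946 ± 0.00580 and 1.096 ± 0.00968 (SD, n = 2 each).

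Calls at single positions also differed between A and U. Of 1847 tested A positions, 967 were higher in paf1△ cells (52.4%) and 143 lower (7.74%), beside 34.4% and 20.6% of all positions. Of 1914 U positions, 434 were higher and 582 lower. With the medians set equal these counts were 704 and 303 for A and 253 and 861 for U. In the spacers alone, 300 of 425 A positions were higher and 27 lower, or 190 and 79 with equal medians. Calls at C in the spacers lay near the shares of all tested spacer positions. Of 233 tested C positions there, 96 were higher in paf1△ cells (41.2%, beside 44.0%) and 69 lower (29.6%, beside 24.9%). With equal medians the counts were 48 and 107. Of all 1279 C positions 352 were higher and 331 lower (205 and 493 with equal medians), and of 1806 G positions 604 and 351 (401 and 569). Among the named positions, the 19 that were higher in paf1△ cells comprised 9 A, 7 G, 3 U and no C, and the 18 that were lower comprised 9 U, 5 C, 4 G and no A.

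**Figure D4:**
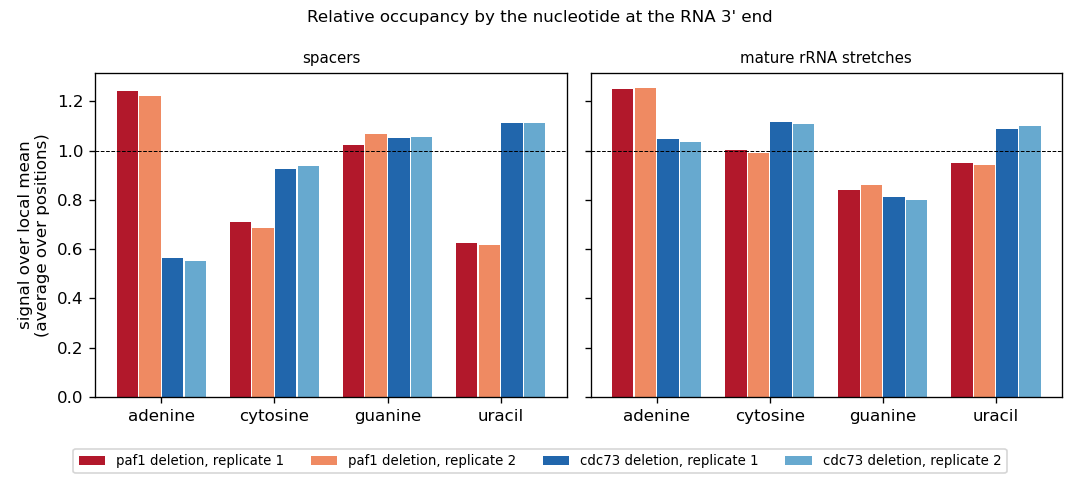
Signal over the local mean, averaged over positions by the nucleotide at the RNA 3' end, for each library, in the spacers and in the mature rRNA stretches. The dashed line at 1 is the local average. In the spacers the adenine bars are at 1.243 and 1.221 in paf1△ cells and 0.563 and 0.554 in cdc73△ cells, and the guanine bars overlap.

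The next base, which the polymerase would add after the 3' end, sharpened the contrast. For a U that follows an A at the 3' end (the step AU, 105 spacer positions), relative occupancy was 1.685 and 1.615 in paf1△ cells and 0.302 and 0.298 in cdc73△ cells. The steps AG (1.640 and 1.715 in paf1△ cells, 0.878 and 0.849 in cdc73△ cells) and GU (1.582 and 1.642 in paf1△ cells against 0.956 and 0.931 in cdc73△ cells) were also higher in paf1△ cells. The steps with the largest differences the other way were UG, at 0.734 and 0.737 in paf1△ cells and 2.169 and 2.195 in cdc73△ cells over 108 positions, CG, at 0.631 and 0.614 in paf1△ cells against 1.595 and 1.673 in cdc73△ cells, and UA, at 0.486 and 0.442 in paf1△ cells against 1.180 and 1.185 in cdc73△ cells. The direction of the averages for U and C did not hold at every step. UU, with 205 of the 497 spacer U positions, was higher in paf1△ cells, at 0.642 and 0.662 against 0.541 and 0.537 in cdc73△ cells. CU was higher in paf1△ cells too, at 0.9021 and 0.8515 against 0.4976 and 0.5129. The steps with U as the next base, AU, GU, CU and UU, were thus all higher in paf1△ cells. Of the 105 AU positions 89 were called higher in paf1△ cells (84.8%) and 1 lower (0.952%). Of the 108 UG positions 11 were called higher (10.2%) and 65 lower (60.2%). Over all tested spacer positions 44.0% were called higher and 24.9% lower. With the medians set equal the AU counts were 61 and 11 and the UG counts 8 and 87, beside 384 and 642 of 1497 spacer positions.

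The same contrast held between the neighbouring bases of a step, where the scaling of a library cancels. The signal was summed over all pairs of a step, so pairs in strong stretches weigh more. Of the signal at an A and the U that follows it in the spacers, 77.97% and 77.11% lay on the A in paf1△ cells and 29.37% and 28.20% in cdc73△ cells. For GU, 66.74% and 65.93% lay on the G in paf1△ cells and 41.84% and 40.97% in cdc73△ cells. For UG, 54.17% and 54.71% lay on the U in paf1△ cells and 81.60% and 82.14% in cdc73△ cells. In the mature stretches the gap for AU was 59.70% and 59.32% in paf1△ cells against 52.50% and 51.14% in cdc73△ cells.

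A pyrimidine at the 3' end followed by G is the core of the elemental pause sequence known from Escherichia coli RNA polymerase. The 155 such positions of the 1504 in the spacers stood at 0.702 and 0.699 in paf1△ cells and at 1.995 and 2.037 in cdc73△ cells. At the 51 of them that also carry G as the tenth base back from the 3' end, counting that end as the first, the values were 0.749 and 0.798 in paf1△ cells against 2.505 and 2.524 in cdc73△ cells. The opposite kind, a purine followed by U (204 positions), stood at 1.635 and 1.628 in paf1△ cells and 0.620 and 0.605 in cdc73△ cells. Of the named positions 10 of the 18 that were lower in paf1△ cells and 1 of the 19 that were higher had a pyrimidine followed by G. Positions 108, 307 and 6411 show that this was not a rule for every site: a C, an A and a C follow them. In the mature stretches the pyrimidine followed by G had 0.927 and 0.913 in paf1△ cells and 1.189 and 1.226 in cdc73△ cells. The G or C content of the last 9 bases of the RNA went with occupancy in both genotypes: spacer positions with at most 2 G or C stood at 0.704 and 0.638 in paf1△ cells and 0.608 and 0.622 in cdc73△ cells, and those with 5 at 1.443 and 1.515 in paf1△ cells against 1.438 and 1.429 in cdc73△ cells. Those with 6 or more stood lower in paf1△ cells, at 1.166 and 1.203 against 1.447 in each cdc73△ library.

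Pause sites were positions above the mean plus 3 SD of the 50 nt on each side in both libraries of a genotype. There were 114 in paf1△ cells and 135 in cdc73△ cells, and 55 were shared, which is 48.2% of the paf1 sites and 40.7% of the cdc73 sites. In the spacers 7 were shared, of 28 and 36, and in the 5' ETS 3 were shared, of 16 and 24. In 25S 35 were shared, of 50 and 68. A made up 59 of the 114 sites of paf1△ cells and 33 of the 135 of cdc73△ cells, and U 22 and 44, while 27.0% of all positions are A.

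Counts by region are given beside 34.4% higher in paf1△ cells and 20.6% lower over all tested positions. In the 5' ETS (chrXII:466870-467569) 337 positions were higher and 197 lower of 697 tested (48.4% and 28.3%), and in 18S (chrXII:465070-466869) 717 and 363 of 1798 (39.9% and 20.2%). ITS1 (chrXII:464709-465069) had 169 higher and 85 lower of 360 (46.9% and 23.6%), and ITS2 (chrXII:464319-464550) 92 and 59 of 231 (39.8% and 25.5%). In 25S (chrXII:460923-464318) 914 were higher and 666 lower of 3395 (26.9% and 19.6%), and in the 3' ETS (chrXII:460712-460922) 61 and 32 of 209 (29.2% and 15.3%). As over all positions, more were higher than lower in every region, 5.8S included (chrXII:464551-464708). With library medians equalised this order was kept in 18S (536 and 510) and 5.8S and turned in the other 5 regions. As a share of all signal, 25S held 58.7% and 59.2% in paf1△ cells and 62.8% and 63.6% in cdc73△ cells. ITS2 was the region whose share overlapped, with 1.13% and 0.985% in paf1△ cells and 1.05% and 1.14% in cdc73△ cells (exact permutation p = 0.667).

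In consecutive windows of 100 nt the shares of signal differed less than single positions did. Limma with Benjamini-Hochberg adjustment called 36 of 69 windows different (52.2%), of which 24 were higher in paf1△ cells (34.8%) and 12 lower (17.4%). The first 100 nt held 0.513% and 0.455% of the signal in paf1△ cells and 0.254% and 0.221% in cdc73△ cells, a log2 difference of 1.03 (SE 0.09). Positions 6701 to 6800 held 0.108% and 0.101% in paf1△ cells against 0.0513% and 0.0518% in cdc73△ cells, and the first 100 nt of 18S held 1.56% and 1.55% in paf1△ cells against 1.01% and 0.753% in cdc73△ cells. The lowest window relative to cdc73△ cells, 4901 to 5000 in 25S, held 1.46% and 1.30% in paf1△ cells and 2.08% and 2.25% in cdc73△ cells. The window 6401 to 6500 held 1.98% and 1.95% in paf1△ cells against 3.10% and 2.50% in cdc73△ cells, and without position 6411 its log2 difference was -0.11 and not called (limma adjusted p 0.2971). Windows 2801 to 2900, at the start of 5.8S, and 6801 to 6858, at the end of the table, were also among the 5 largest rises, with log2 differences of 0.73 and 0.92. Windows 3401 to 3500, 4401 to 4500 and 501 to 600 were among the 5 largest falls, at -0.40, -0.40 and -0.39. Window calls rest on a spread pooled over windows: without replicate 2 of paf1△ cells 2 windows were higher and 0 lower, and without replicate 2 of cdc73△ cells 7 and 1.

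**Figure D5:**
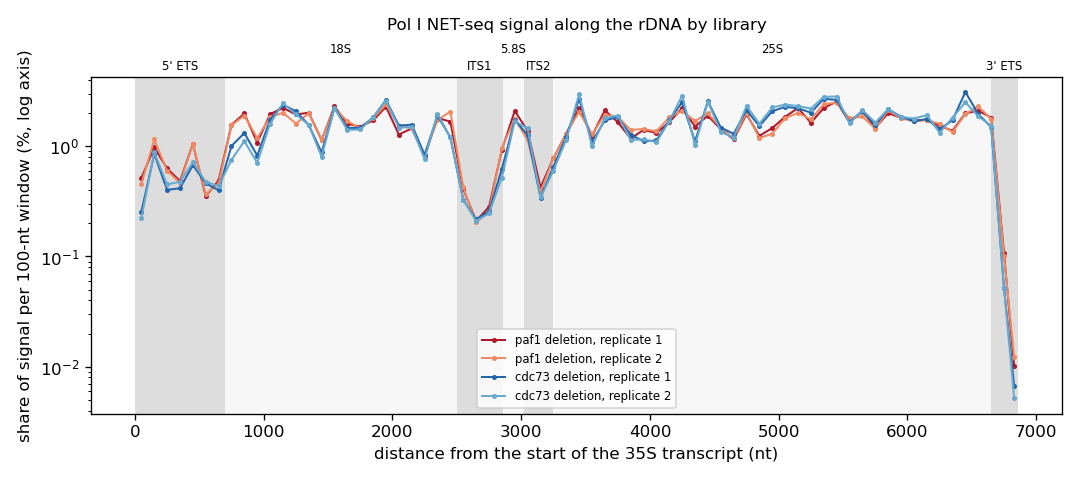
Share of signal in consecutive 100-nt windows (percent, log axis; the last window has 58 nt) against distance from the start of the 35S transcript, for each library, with spacers as grey bands. The 2 paf1 libraries lie above the 2 cdc73 libraries in the first window, at 0.513% and 0.455% in paf1△ cells against 0.254% and 0.221% in cdc73△ cells, and again in the last 2 windows.

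At the very start of the transcript the profiles began at different bases. The positions of this paragraph and the next, other than 6739, were chosen after their values were seen. The first position with a signal above 10 was 12 in both paf1△ libraries and 23 and 25 in the cdc73△ libraries. Position 12 had 69.7 and 70.3 in paf1△ cells and 0.2 in each cdc73△ library, and position 13 had 89.8 and 112.7 in paf1△ cells against 1.6 and 1.1 in cdc73△ cells. Positions 11 to 22 summed to 383 and 404 in paf1△ cells and 15.3 and 6.35 in cdc73△ cells, positions 23 to 50 to 1737 and 1501 in paf1△ cells against 945 and 702 in cdc73△ cells, and positions 51 to 100 to 3013 and 2642 in paf1△ cells against 1583 and 1503 in cdc73△ cells. The ratio of the mean sums fell along these stretches, at 36.4, 1.97 and 1.83. Their difference was 382, 796 and 1285, but each stretch is longer than the one before. The sums were not divided by length. Position 24 had 97.6 and 121.4 in paf1△ cells against 14.2 and 6.9 in cdc73△ cells, while position 38 had 22.2 and 19.5 in paf1△ cells against 130.3 and 87.8 in cdc73△ cells. The labels do not give the read lengths kept, and the part of read length in these values was not tested. Capitals mark positions 12, 13, 24 and 38.
Positions 1 to 50, 5' ETS, chrXII:467520-467569: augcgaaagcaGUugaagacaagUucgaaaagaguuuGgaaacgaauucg

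Around the 3' ends of the mature rRNAs all 4 libraries were listed at 0 at 3 positions in a row, 2499 to 2501 at 18S, 3018 to 3020 at 5.8S and 6647 to 6649 at 25S. The base before the gap at 18S, the U at 2498, had 4650 and 5678 in paf1△ cells and 2155 and 2930 in cdc73△ cells (limma adjusted p with Benjamini-Hochberg adjustment 0.005307). At 5.8S, the U at 3017 had 2375 and 1888 in paf1△ cells and 1218 and 1619 in cdc73△ cells, while the C at 3015 had 2864 and 2376 in paf1△ cells against 3221 and 3601 in cdc73△ cells and was not called. At 25S the U at 6645 had 2084 and 1981 in paf1△ cells and 1075 and 1107 in cdc73△ cells, while the G at 6646 was not called, with 2782 and 2672 in paf1△ cells against 2972 and 3181 in cdc73△ cells. These end positions held some of the strongest signals of the table, and at each of the 3 ends neighbouring bases did not all share a call. Next to 2498, the A at 2497 had 934.5 and 1343.9 in paf1△ cells and 756.4 and 996.7 in cdc73△ cells and was not called. Near the end of the table, the U at 6739 had 311 and 322 in paf1△ cells and 125 and 124 in cdc73△ cells. Beyond it the signal was weak in both: positions 6740 to 6858 summed to 402 and 411 in paf1△ cells and 209 and 192 in cdc73△ cells. The strongest base there in paf1△ cells was the A at 6745, with 104.4 and 77.8 in paf1△ cells against 1.5 and 1.8 in cdc73△ cells. In cdc73△ cells it was the U at 6751, with 4.8 and 3.5 in paf1△ cells against 43.7 and 37.0. Capitals mark position 2498 and the 3 positions at 0 in the first sequence, and positions 6739, 6745 and 6751 in the second.
End of 18S, 18S, chrXII:465060-465085: ugcggaaggaucaUUAAagaaauuua
Positions 6725 to 6755, 3' ETS, chrXII:460815-460845: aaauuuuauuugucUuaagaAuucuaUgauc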

How the data were processed

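Per the submitters' processing notes, the authors mapped to build R64, with STAR 2.7.1a and cutadapt 3.4 among the tools named beside bedtools 2.28.0, SAMtools 1.6, FastQC 0.11.7, R 4.3.2 and bcl2fastq 2.20.00. Per the labels the linker carried a molecular identifier. Not given in the sources used here are how it was used, which read end gave a position and how repeat matches were handled.

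The deposited signal is taken as reads per position with the sum over positions 1 to 6739 set to 1000000, as read from the values. The bases and regions come from the same table, and the regions had the ends of the RefSeq rDNA genes. The authors' own mean, ratio and p-value columns were not used. Values divided by the smallest value were whole within 0.1 read at 99.9% to 100.0% of positions. From 1 to 10 values per library lay midway between whole numbers. The paf1 deletion columns held too few low values for recovery to be accepted. The planned count tests were therefore not run.

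Limma 3.58.1 was run in R 4.3.3 with a trended prior and no block. It tested the 6846 positions above 0 in 2 or more of the 4 libraries, on log2(signal + 47.354), the pseudocount being 0.5 times the median of the values above 0. Windows were tested without trend on log2 shares. Benjamini-Hochberg adjustment was at 0.05. Other values were compared by exact two-sided permutation tests with scipy 1.17.1. The fits were checked on simulated data. Named positions are the 10 largest differences in each direction and the 2 largest in each direction in each region, among called positions with non-overlapping genotypes and a mean no lower than the median, 98.4. Of the 16 base steps, the 3 largest in each direction are named, with CU and UU added after their values were seen. Of the windows the 5 largest in each direction were examined. The genotypes, positions and lists were chosen with earlier results of these data known. Alternatives covered pseudocount, filter, scaling, trend, depth, replicate number as a block, window size, local background, pause threshold and leaving out each library.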

Additional observations from a re-analysis of the deposited data

How the results depend on the processing

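Pseudocounts of 0.1 and 1 times the median gave 705 and 141 positions at least 2-fold higher in the paf1 deletion and 380 and 98 lower. With medians set equal, 1563 were higher and 2226 lower, 263 of them at least 2-fold. In 3-nt bins, chosen after seeing the data, 768 of 2286 were higher and 445 lower, with 47 and 26 at least 2-fold. Moving the cdc73 profile 1 nt upstream, also chosen later, gave 670 and 546 at least 2-fold. Under that move the log2 difference turned at positions 499 (0.19), 504 (0.66), 1232 (1.23), 2918 (1.09), 3049 (0.41), 3227 (0.10), 6411 (0.90) and 6673 (0.47), since each was then set against another base, and position 1072 lost its call (-0.19). The difference in relative occupancy of U shrank to -0.0651 in the spacers, from -0.491, and to -0.00604 in the mature stretches, from -0.150, that of C in the spacers grew to -0.705, from -0.231, A in the mature stretches grew to 0.446, C there shrank to -0.0331, G in the spacers grew to -0.203 and G in the mature stretches turned to -0.384. Windows of 50 nt gave 45 higher and 23 lower of 137, and of 200 nt 10 and 6 of 34. Leaving out each library in turn gave 1664 to 2431 positions higher and 1010 to 1493 lower, 255 to 337 and 160 to 201 at least 2-fold, and 2 to 17 windows higher and 0 to 10 lower. Without replicate 1 of the paf1 deletion 15 windows were higher and 7 lower, without its replicate 2, 2 and 0, without replicate 1 of the cdc73 deletion 17 and 10, and without its replicate 2, 7 and 1. The ITS2 share, which overlapped at -0.0355 percentage points, turned to 0.0637 without 10 nt on each side of mature ends and ranged from -0.108 to 0.0372 without 1 library. G in the spacers, which also overlapped, turned to 0.0254 in a 51-nt local window, 0.0711 with no local background and 0.0134 on the log2 scale, and ranged from -0.0272 to 0.0148 without 1 library. C in the mature stretches turned to 0.0209 on the log2 scale. Pause sites above the mean plus 5 SD numbered 47 and 45, with 22 shared. With replicate number as a block 2271 positions were higher and 1280 lower, and 21 windows higher and 11 lower. Same-numbered deviations had an r of -0.227 across positions, and nothing in the labels pairs the libraries. With crossed numbers, added after seeing the data, the counts were 2632 and 1624 positions and 28 and 14 windows. The cause of these changes was not tested. The planned count tests were not run. Of the changes in values that answer a comparison, 205 were kept, 26 moved further and 9 turned. For counts, kept means within 1.5 times. For shares, mean position, concentration and occupancy by base or step, kept means the same direction only, because the exact test cannot pass the threshold. A kept value could thus shrink, as U in the spacers did from -0.491 to -0.0651. For single positions and windows, kept means the same direction and side of the threshold. Among single positions, windows and base steps 760 were kept, 20 lost their call and 8 turned.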
